A study of Mus musculus with 22 samples.

Results

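The cells described here are kidney proximal tubule barcodes of mouse organ pools, many of which carried a large share of mitochondrially encoded transcripts. They were selected on measured transcripts, in the tissue libraries whose organs had been tagged with antibody hashtags and pooled. A barcode was kept with at least 200 detected genes and at most 60% of its unique molecular identifiers (UMIs, the count of captured transcripts) in genes whose names start with mt-. It also needed at least 1 UMI in 3 or more of 7 proximal tubule genes (Miox, Fxyd2, Gatm, Keg1, Akr1c21, Slc34a1 and Lrp2) and 0 UMIs of Ptprc, Umod, Slc12a3 and Aqp2. This rule kept 24974 of the 151494 tissue barcodes that passed the gene and mitochondrial limits (16.5%), or 13.9% of all 179929 barcodes of the 22 libraries. They are called members below. The 10 libraries of sorted circulating ZsGreen-positive blood cells and the peripheral blood mononuclear cell library held no members and enter no comparison of members. The rule demands 0 UMIs of Ptprc, a leukocyte marker, and is therefore no test of these libraries.

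All mice carried Prom1-CreERT2, a tamoxifen-activated recombinase driven from the Prom1 locus, and the Rosa26ZSG lineage reporter. The study deleted a conditional allele of Nalcn, a sodium leak channel, and the tissue libraries fell into Nalcn-wt (5 libraries), Nalcn-het (2) and Nalcn-null (2) groups, with 2 further libraries whose title and strain name different genotypes and which enter no comparison. Each library pooled kidney, liver, lung and stomach with epididymis in males or uterus in females, and the kidney had been dissociated with papain. The wt libraries came from males aged 571 days (replicates 1 and 2) and 608 days (replicate 3) and from females aged 611 days (replicate 4) and 654 days (replicate 5). Both het libraries came from males aged 551 days. Null replicate 2 came from a male of 552 days and null replicate 3 from a mouse labelled female, of 611 days. The group of null replicate 3 was taken from its strain label alone, whereas the other groups follow the library titles. The libraries without a group came from a male of 610 days and a female of 647 days. Replicates of the same age and sex may share a mouse, since the labels do not say, and p-values then cover only the spread between libraries. Tamoxifen recombines the alleles in cells in which the Prom1 locus is active at dosing, and the descendants of these cells keep the change. The Prom1 level of a member at collection therefore does not show whether it was recombined. All members of a library were compared as 1 value or 1 summed profile per library.

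The proximal tubule is the first part of the nephron after the glomerulus and takes back most filtered glucose, amino acids, phosphate and protein. It fuels this transport mainly with fatty acid oxidation in densely packed mitochondria, and it also makes glucose and the active form of vitamin D. Its early, convoluted part is known for high-capacity glucose and amino acid uptake and for vitamin D hydroxylation, and its late, straight part for other organic anion and amino acid carriers and for strong differences between male and female mice. A high share of mt- transcripts is often read as a sign of a damaged cell and used as a filter, but tissues rich in mitochondria have high shares in intact cells too.

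The members numbered 92 (wt replicate 5) to 5598 (wt replicate 2) per library, and their share of passing barcodes ran from 5.14% (wt replicate 4) to 30.3% (null replicate 3). A member held a median of 613.5 (null replicate 2) to 3769.5 (wt replicate 1) UMIs of nuclear genes, and the median number of detected genes was 461 to 1662.5. Only 73 of 24901 distinct member barcodes (0.293%) occurred in 2 or more libraries. Null replicate 3, labelled female with a uterus, carried epididymal transcripts, with a summed level of 18698 CPM (counts scaled to 1000000 nuclear UMIs) over 7 epididymal genes against 2.06 and 16.1 CPM in wt replicates 4 and 5. It also held Ddx3y, a Y-linked gene, at 18.3 CPM, which was at 0 in the other grouped female libraries and at 77.6 CPM or more in every male library, and Xist, which is expressed in females, was at a level between those of wt replicates 4 and 5. The label of that library and its RNA therefore did not match in full, and the comparisons of genotype and sex are given with and without it below or in the closing section.

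The levels of the 7 marker genes that chose the members are given as a description. Miox, which starts inositol breakdown, had a UMI in 68.5% to 93.0% of the members of a library and a level of 2090 to 5278 CPM. Slc34a1, the apical sodium-phosphate carrier, had a UMI in 62.2% to 87.5% and reached 2739 to 8049 CPM. Lrp2, the endocytic receptor megalin, ran from 897 to 1767 CPM, and Gatm, the first enzyme of creatine synthesis, from 1349 to 3585 CPM. Fxyd2, a regulator of the sodium pump, ran from 2840 to 7292 CPM and Akr1c21, a steroid-metabolizing enzyme, from 712 to 2074 CPM. Keg1, an acyltransferase-like gene of kidney, was the lowest of the 7 at 238 to 626 CPM.

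To show a sequence feature that the rule did not use, the promoters of the rule markers were searched for GTTAAT on either strand (ATTAAC on the other). In RefSeq promoters on GRCm38.p6 (250 bases before to 50 after the start), this motif was in 2332 of 32851 promoters (7.10%). It was in 3 of the 6 rule markers that had a promoter entry and not in this window of Gatm, Keg1 and Lrp2. A match is a description of letters and no evidence of binding. The 3 promoters that hold it are shown 5′ to 3′ on the + strand with the motif in capitals, for Miox at chr15:89334223-89334522, Akr1c21 at chr13:4573825-4574124 and Slc34a1 at chr13:55399398-55399697, where it occurs at 2 places.
Miox: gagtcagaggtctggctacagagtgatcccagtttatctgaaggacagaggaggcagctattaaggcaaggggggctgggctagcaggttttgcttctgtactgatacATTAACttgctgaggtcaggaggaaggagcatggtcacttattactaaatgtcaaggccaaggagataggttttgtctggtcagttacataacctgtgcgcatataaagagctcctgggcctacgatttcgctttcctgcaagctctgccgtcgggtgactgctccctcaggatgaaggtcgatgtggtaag
Akr1c21: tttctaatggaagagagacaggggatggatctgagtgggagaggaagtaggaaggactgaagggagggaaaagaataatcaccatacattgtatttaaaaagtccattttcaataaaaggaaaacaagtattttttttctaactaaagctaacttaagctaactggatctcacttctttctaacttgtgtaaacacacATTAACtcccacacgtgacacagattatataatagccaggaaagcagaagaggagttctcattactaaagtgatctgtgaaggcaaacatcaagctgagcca
Slc34a1: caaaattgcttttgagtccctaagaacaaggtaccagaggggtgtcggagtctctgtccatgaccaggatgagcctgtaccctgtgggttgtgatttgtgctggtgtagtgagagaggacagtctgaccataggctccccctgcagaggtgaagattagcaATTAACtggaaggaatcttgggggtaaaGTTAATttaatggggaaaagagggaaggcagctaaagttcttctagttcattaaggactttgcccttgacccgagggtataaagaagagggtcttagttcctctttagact

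Not every member carried the labelled cell type's genes at a high level. Tubule RNA was also found in barcodes of other cells: among barcodes with a UMI of Ptprc, the leukocyte marker CD45, 3.08% (the male library without a group) to 58.2% (wt replicate 2) also had UMIs of 3 or more of the 7 markers. In these Ptprc-positive barcodes the 7 markers together stayed low, with a 90th percentile between 0.139% and 0.723% of nuclear UMIs across libraries. The median member held 1.20% to 2.77% in 10 libraries, above that percentile of the same library. In wt replicate 2, which had the most members, it held 0.609%, below the 90th percentile of 0.690% in Ptprc-positive barcodes there. A stricter class was therefore added after seeing the data, the marker-rich members, in which the 7 genes made up at least 1% of nuclear UMIs. It held 16336 members (65.4%), and its share of a library's members ran from 44.1% in wt replicate 2 to 92.0% in the male library without a group. The comparisons of genes below were run on all members and on marker-rich members. Only 11585 members (46.4%) had 0 UMIs of all 9 genes of a stricter exclusion, which mark hepatocytes, alveolar, endothelial, stromal, loop of Henle, intercalated and epididymal cells, so that most members carried a UMI of another cell type's gene. At the border of the rule, barcodes with exactly 3 markers (6758) had a median marker level of 0.406% of nuclear UMIs and barcodes with 2 markers (11931, outside the rule) had 0.240%, whereas the 4571 members with all 7 markers had 2.89%.

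Members carried more mitochondrial transcripts than the rest of the pool. The median mt- share was 30.4% of a member's UMIs against 18.2% in the 126520 other passing barcodes, and 59.6% of members against 34.4% of other barcodes lay above 25%. The library medians ran from 24.9% (wt replicate 2) to 46.0% (wt replicate 5), and in all 11 libraries the members' median was above that of the other barcodes, which ran from 11.2% to 34.2%. These shares describe the members, since the rule itself set the upper limit of 60%. The limit fell inside a continuous distribution: the 1647 members with a share of 55 to 60% had a median of 2.71% of nuclear UMIs in the 7 markers and 688 detected genes, and the 1218 barcodes just outside, at 60 to 65%, had 2.69% and 691.5 genes. Without the limit the marker rule met 30576 barcodes, 5602 of them above 60%.

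**Figure D1:**
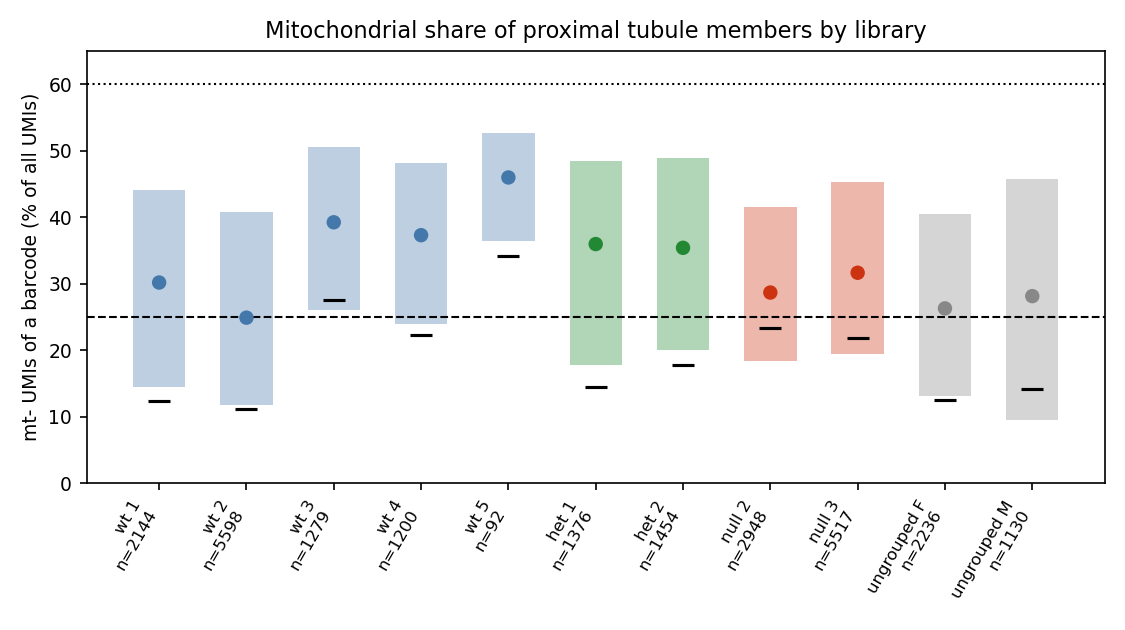
The share of mt- UMIs in the members of each library (vertical axis, % of all UMIs of a barcode), with the median as a point, the quartiles as a bar and the median of the other passing barcodes as a black dash. The dashed line marks 25% and the dotted line the 60% limit. Every member median stands above the dash of its library, and the medians run from 24.9% to 46.0%.

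All mt- UMIs in the matrix fell in the 13 protein-coding genes of the mitochondrial genome. Which mitochondrial genes could be counted was set by the annotation. mt-Co3, a subunit of cytochrome oxidase, was the most abundant by the median over libraries with 16.8% to 24.5% of a library's mt- UMIs, followed by mt-Atp6 of the ATP synthase with 14.3% to 20.7%. The make-up shifted with the load for some of these genes: from members with at most 10% mt- UMIs to those with 40 to 60%, mt-Co1 went from 18.7% to 13.8% of mt- UMIs, mt-Nd4 from 7.53% to 8.99% and mt-Co3 from 19.9% to 20.4%. The less abundant complex I genes mt-Nd4l and mt-Nd3 went from 1.63% to 2.55% and from 1.00% to 1.48%. These values are pooled over libraries and have no replicate error. The bins hold the libraries in unlike proportions, and mt-Co1 alone ran from 10.6% to 19.4% between libraries. The part of the library mix in these shifts was not tested.

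Barcodes chosen by loop of Henle or hepatocyte genes in the same pools were used to ask whether the high share was particular to the proximal tubule. Neither choice left out members, so a barcode could count on both sides, and this overlap was not counted. In 8 grouped libraries with at least 20 cells of both kinds, the median share was 32.9% ± 4.87 (SD, n = 8) in members and 35.9% ± 5.80 (n = 8) in loop of Henle cells, which had UMIs of at least 2 of 5 loop genes. Loop of Henle cells also had 0 UMIs of Ptprc, Slc34a1, Slc12a3 and Aqp2. The members were lower by 2.98 percentage points on average, higher in 2 of 8 libraries, and the difference did not exceed the spread between libraries (exact two-sided sign-flip test, p = 0.180). Among marker-rich members the sign turned, with 38.6% ± 3.34 and a difference of 2.67 points in favour of the members (exact p = 0.227, higher in 5 of 8). A share above that of the loop of Henle was therefore not shown. Hepatocytes, the other mitochondria-rich cell of the pool, reached 20 cells in only 3 libraries (het replicates 1 and 2 and wt replicate 3). There members stood at 36.0%, 35.4% and 39.2% and hepatocytes at 17.3%, 23.4% and 41.6%. This test had an exact p of 0.500 and could not go below 0.250. Without the 60% limit, 5 libraries could be compared, and the hepatocyte median of 84.3% ± 5.73 was above the members' 41.4% ± 8.12 in all 5 (exact p = 0.0625, the smallest that 5 pairs allow). The libraries that could be compared changed with the limit as well, and no order under the 60% limit was shown.

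Along the mitochondrial share, the make-up of the members shifted. As a description, the 7 rule markers went from a median of 0.314% of nuclear UMIs in the 2950 members with at most 10% mt- UMIs to 0.956% in the 7140 with 10 to 25%, 1.94% in the 6619 with 25 to 40% and 2.58% in the 8265 with 40 to 60%. The share of marker-rich members went from 35.9% to 85.7% over the same bins. Members with a UMI of Cdh5, the endothelial cadherin, went the other way, from 22.7% to 7.39%. The summed level of the 7 epididymal genes went from 19017 to 920 CPM and that of 7 leukocyte genes from 3084 to 949 CPM. Erythroid genes, the most abundant of these lists, went from 41183 to 9825 CPM, gastric genes from 2580 to 769 CPM, and alveolar type 2 genes from 608 to 262 CPM with 1847 CPM at 10 to 25%. Hepatocyte genes went the same way as the tubule markers, from 202 to 539 CPM over 8 genes, and so did loop of Henle genes, from 129 to 260 CPM. Within marker-rich members the marker level was nearly flat, between 2.29% and 2.76%, and Cdh5 between 5.24% and 6.67%, a class whose 1% floor is set on these markers. The slope over all members was not the same everywhere: in both het libraries and in the male library without a group, the marker level was already above 2% in members with at most 10% mt- UMIs.

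**Figure D2:**
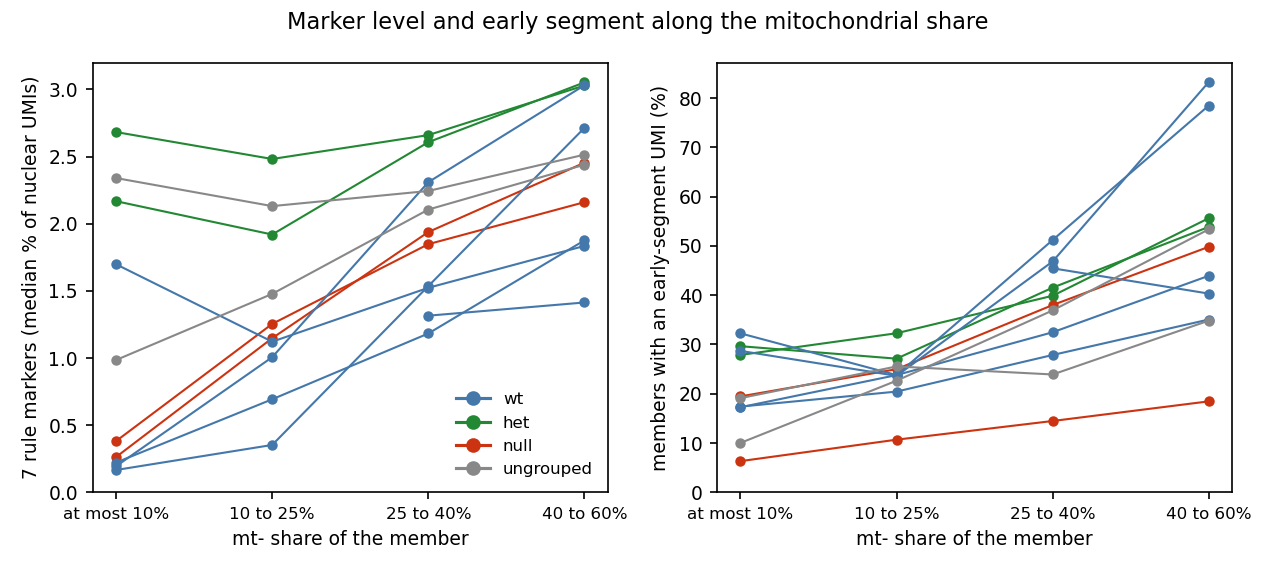
Each line is 1 library, and the horizontal axis gives 4 bins of the mt- share. The left panel shows the median share of nuclear UMIs in the 7 rule markers and the right panel the share of members with a UMI of Slc5a2 or Slc5a12 and none of Slc7a13 or Slc22a7. Bins under 20 members are left out. Most lines climb to the right, whereas the het libraries and 1 ungrouped library start high on the left panel.

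Segments were read from 4 genes that did not choose the members. Early members had a UMI of Slc5a2, the glucose carrier SGLT2, or Slc5a12, a lactate carrier, and none of the late genes. Late members had a UMI of Slc7a13, an aspartate and glutamate carrier, or Slc22a7, an organic anion carrier, and none of the early genes. There were 9022 early and 586 late members. A call from 1 UMI has a background: by the same rule 10.7% of Ptprc-positive barcodes were early and 0.796% late (median of 1655 nuclear UMIs), against 36.1% and 2.35% of members (1281). In wt replicates 1 and 2 the early background was 24.6% and 22.5%, against 49.7% and 43.3% of members, and the late background 1.55% and 2.53%, against 5.32% and 5.59%. Late calls were close to background in null replicate 3 (0.308% against 0.265%) and in the female library without a group (0.134% against 0.163%). Early members made up 19.0% of the lowest mt- bin, 22.4% and 37.0% of the next bins and 53.4% of the highest. The median number of nuclear UMIs over all libraries went from 2327.5 to 1039 over these bins, but in wt replicate 1 it went from 3705 to 7090 and in wt replicate 2 from 3126.5 to 3165. These libraries had the steepest early shares (28.7% to 83.3% and 17.3% to 78.5%) and held 1066 and 2425 of the 9022 early members. With every member thinned to 500 nuclear UMIs, and 21, 364, 837 and 1595 shallower members of the 4 bins left out, the early share was 5.57%, 11.3%, 24.9% and 44.6%. At that equal depth it was 8.58% and 63.5% in the lowest and highest bins of wt replicate 1 and 2.97% and 57.5% in those of wt replicate 2. The lowest bin of wt replicate 2 lay below the share in Ptprc-positive barcodes, both as measured (22.5%) and at equal depth (6.55%), and that of wt replicate 1 little above it (24.6% and 7.13%), so the low end of the slope was at or near background in these libraries. Before thinning, in 10 of 11 libraries the highest bin had the highest early share, the exception being wt replicate 5, with 45.5% of 22 members at 25 to 40% and 40.3% of 62 in the highest bin. The same bins of marker-rich members gave 27.8%, 30.9%, 44.7% and 59.2%.

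Late members sat at lower mitochondrial shares. Their median was 26.2% against 39.6% in early members. Of all segmented members (early or late), late ones were 6.98% in the lowest bin, 12.7% at 10 to 25%, 7.30% at 25 to 40% and 2.61% at 40 to 60%. A limit of 25%, a filter of the kind often used, would have kept 275 of 586 late members (46.9%, 95% Wilson interval 42.9 to 51.0) and 2161 of 9022 early members (24.0%, 23.1 to 24.8). The intervals cover counting error only. In the 4 grouped libraries with at least 20 late members the order was the same: wt replicate 1 kept 39.5% of late and 21.7% of early members, wt replicate 2 kept 50.5% and 24.5%, wt replicate 3 kept 60.9% and 15.9%, and null replicate 2 kept 67.6% and 30.5%. The male library without a group went against them, with 21.2% of 52 late and 38.2% of 301 early members kept. In marker-rich members the limit kept 41.3% of 465 late and 17.97% of 7670 early members. A limit of 10% gave no such gap: it kept 42 late members (7.17%, interval 5.35 to 9.55) and 560 early members (6.21%, 5.73 to 6.72), and 2.80% and 3.83% in marker-rich members. At that limit late members were kept less often in wt replicate 1 (7.89% against 9.10%), wt replicate 2 (7.35% against 7.92%) and wt replicate 3 (0 of 23, interval up to 14.3%, against 1.06%), and more often in null replicate 2 (8.82% against 2.46%). Early calls at these low shares were at or near background in wt replicates 1 and 2, as given above. In null replicates 2 and 3 the early share of the lowest bin was 6.33% and 19.5%, against 3.29% and 10.0% of Ptprc-positive barcodes. At equal depth it was near background there, with 2.55% and 5.37% against 2.33% and 4.68%. Late calls in the lowest bin of wt replicate 2 were at background too, with 23 of 1112 members against 2.53% of Ptprc-positive barcodes. At 10 to 25% mt- UMIs, early members were 23.6% and 23.8% in wt replicates 1 and 2, against 24.6% and 22.5% of Ptprc-positive barcodes. At equal depth these shares were 11.5% and 8.88%, against 7.13% and 6.55%. Early calls kept at the 25% limit in these 2 libraries were thus near background as measured.

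**Figure D3:**
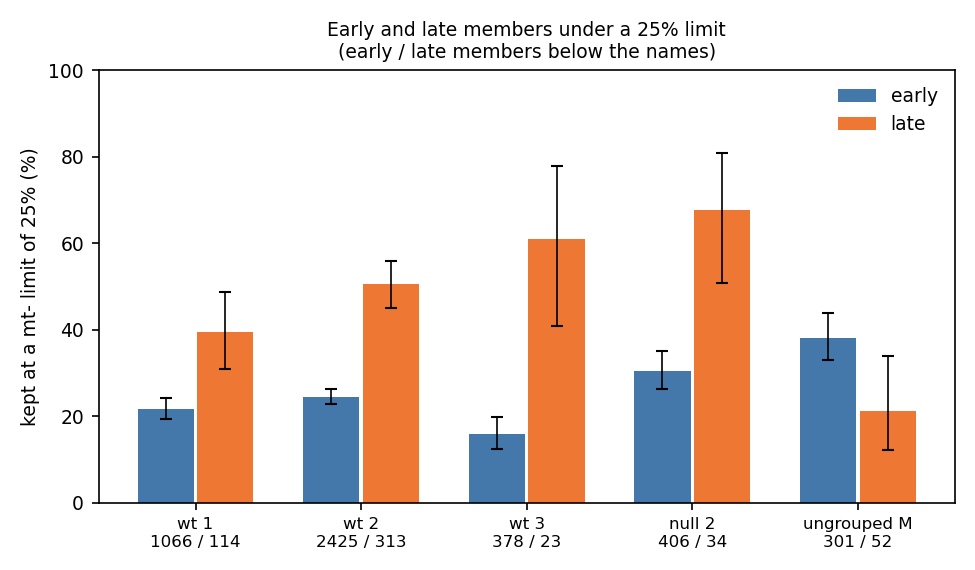
Percentage of early (blue) and late (orange) members that a mt- limit of 25% would keep, in libraries with at least 20 of each, with 95% Wilson intervals as error bars. Numbers of early and late members stand under each name. Late members were kept more often in the 4 grouped libraries and less often in the ungrouped male library.

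The late share itself differed widely between libraries. Late members were 9.66% and 11.4% of segmented members in wt replicates 1 and 2, 5.74% in wt replicate 3 and 7.73% in null replicate 2. In het replicates 1 and 2 they were 2.02% and 1.86%. The female libraries were low, at 1.16% (wt replicate 4), 2.70% (wt replicate 5, 1 late member), 0.824% (null replicate 3) and 0.413% (the female library without a group), and the male library without a group was the highest at 14.7%. Of the 2 late genes, Slc22a7 had only 51 UMIs in all members. Slc7a13 was at 7.06 to 84.2 CPM in the 7 male libraries and at 0 to 4.03 CPM in the 4 libraries labelled female. The comparison of segments below therefore rests on males.

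Late and early members of the same library were compared in the 4 grouped libraries with at least 20 of each (wt replicates 1, 2 and 3 and null replicate 2). Of 9642 genes tested, 996 (10.3%) were higher and 867 (8.99%) lower in late members (edgeR quasi-likelihood test with the library as a block, adjusted p under 0.05). Under another scaling (RLE size factors) the split was 845 higher and 1105 lower, as that scaling moved the median log2 difference of all genes from -0.05 to -0.13. In marker-rich members, where 3 libraries had enough late members (wt replicates 1 and 2 and null replicate 2), 1422 (16%) of 8886 were higher and 1334 (15%) lower, and the 1737 genes called in both fits had the same sign. Without wt replicate 1 or 2, 753 or 732 genes in all were called. Levels in this comparison are CPM of all UMIs outside the rule and segment genes, and differences are on the log2 scale.

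Carriers that are known for each part, and that the segment rule did not use, followed it. Of 10 late straight-tubule genes 9 were higher in late members and the other was not called, with a list median of 4.98. Slc7a12, an amino acid carrier, stood at 235, 280, 1710 and 1138 CPM in the late members of wt replicates 1, 2 and 3 and null replicate 2, and at 0.649, 1.796, 11.5 and 0 CPM in their early members. The groups did not overlap (log2 7.53, SE 0.31, edgeR adjusted p = 7.66e-10). Slc5a8, a monocarboxylate carrier, was at 309 to 525 CPM in late and 2.52 to 23.7 CPM in early members (log2 5.56, SE 0.33). Slc22a13, an organic anion carrier of the same family as Slc22a7, was at 58.6 to 438 CPM against 0.360 to 6.71 CPM (log2 6.84, SE 0.31). Of 8 early convoluted-tubule genes 7 were lower in late members and 1 was higher, with a median of -3.55. Slc6a19, the neutral amino acid carrier of the brush border, stood at 46.7, 30.3, 9.61 and 14.6 CPM in late members and at 655, 428, 304 and 418 CPM in early members of the same libraries (log2 -4.11, SE 0.22). Spp2, a secreted phosphoprotein, was at 19.2 to 51.1 CPM in late and 700 to 1919 CPM in early members (log2 -5.16, SE 0.22).

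Glucose handling showed the known exchange of carriers. Early members had been chosen by SGLT2. Slc5a1, which encodes the high-affinity carrier SGLT1 of the straight part, was at 57.3, 45.2, 57.7 and 131 CPM in late members of wt replicates 1, 2 and 3 and null replicate 2 and at 1.23, 2.82, 2.88 and 5.48 CPM in early members (log2 4.43, SE 0.30, edgeR adjusted p = 6.80e-08). G6pc, which releases glucose, was lower in late members (log2 -1.16, SE 0.20), and so was Pck1 (log2 -0.56, SE 0.16). Of the 8 genes of glucose release and ammonia handling 4 were lower and 2 higher, among the latter Glul (log2 0.55, SE 0.15), which binds ammonia to glutamate. Over all 23 solute carriers 6 were higher, 10 lower and 7 not called. Protein uptake genes were lower or not called: 4 of 8 fell, among them the clathrin adaptor Dab2 (log2 -1.25, SE 0.17) and Amn, which anchors the uptake receptor cubilin (log2 -0.89, SE 0.17). The balance of these lists turned among members with at most 25% mt- UMIs, in 3 libraries (wt replicates 1 and 2 and null replicate 2), where 755 of 9543 genes (7.91%) were higher and 667 (6.99%) lower. There 9 solute carriers were higher and 4 lower (median 0.50), 2 protein uptake genes were higher and 0 lower (median 0.04), and none of the 8 genes of glucose release and ammonia handling was called. Amn had a log2 difference of 1.00 and Pck1 of 0.32, opposite to the values above.

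Vitamin D and phosphate genes were lower in late members in 5 of 8 cases and higher in none. Cyp27b1, the enzyme that makes active vitamin D, was at 24.9, 45.9, 4.79 and 10.96 CPM in the early members of wt replicates 1, 2 and 3 and null replicate 2. It was at 0 in late members of 3 of these libraries and at 2.48 CPM in wt replicate 2 (log2 -4.77, SE 0.44). Wt replicate 3 and null replicate 2 had only 23 and 34 late members and low early levels, so a 0 there does not show absence. Cyp24a1, which breaks vitamin D down, was at 107 to 219 CPM in early and 13.9 to 58.3 CPM in late members (log2 -2.95, SE 0.24). Pth1r, the parathyroid hormone receptor, was lower too (log2 -1.15, SE 0.19), but had 0.25 among members with at most 25% mt- UMIs. Gpx3, a secreted glutathione peroxidase of plasma that the proximal tubule makes, was among the most abundant nuclear transcripts, with 14566 to 35990 CPM in early and 4487 to 6161 CPM in late members (log2 -2.32, SE 0.13).

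**Figure D4:**
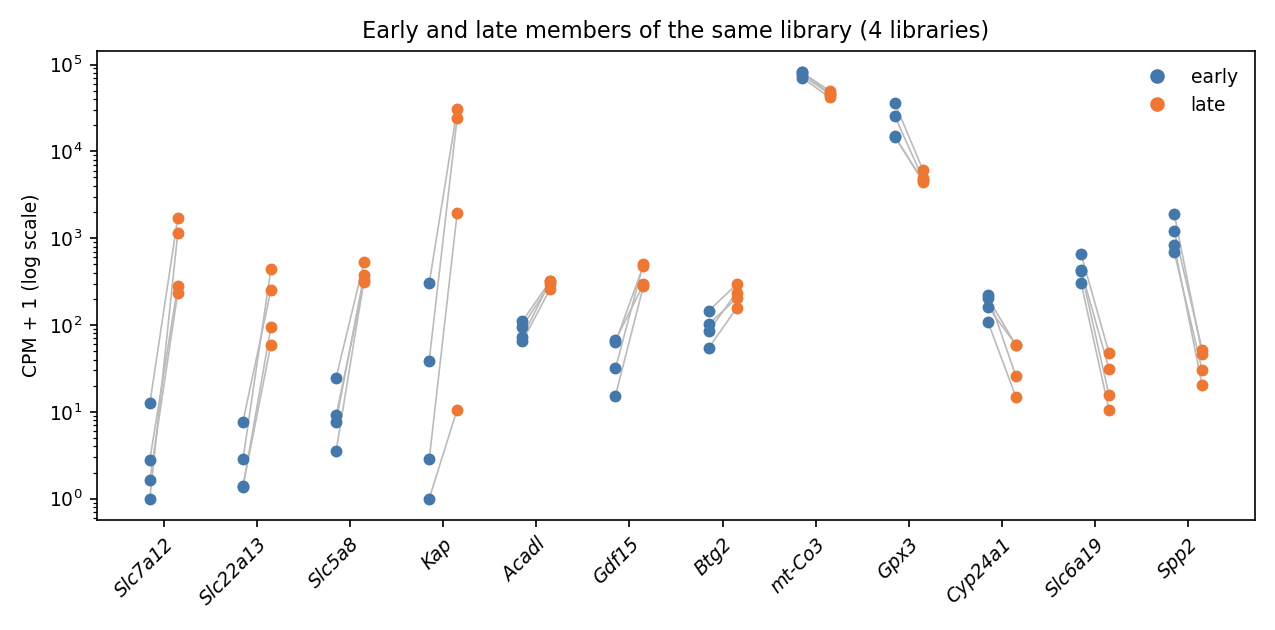
Levels of 12 genes in early (blue) and late (orange) members of 4 libraries, as CPM plus 1 of all UMIs on a log axis, with a grey line joining the 2 values of a library. Slc7a12, Slc22a13 and Slc5a8 lie higher in the late members of all 4 libraries, and Spp2, Slc6a19, Cyp24a1, Gpx3 and mt-Co3 lower.

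Over all members, nuclear and mitochondrial parts of respiration differed in opposite directions between segments. Of 13 mitochondrially encoded genes 12 were lower in late members and none higher, with a median of -0.99. These levels are shares of all UMIs, so they restate the lower mt- share of late members (median 26.2% against 39.6%). mt-Co3 was at 41890, 49798, 46266 and 45935 CPM in late members of wt replicates 1, 2 and 3 and null replicate 2 and at 70828 to 81816 CPM in early members. Of 91 nuclear genes of oxidative phosphorylation 25 were higher in late members and 0 lower, with a median of 0.33 (all genes -0.05), for example Ndufb8 of complex I (log2 1.26, SE 0.20) and Sdhb of complex II (log2 0.88, SE 0.17). Under RLE scaling the nuclear list held 19 higher and 2 lower genes. Fatty acid oxidation genes were higher in 8 of 16 cases and lower in 1, led by Acadl, the long-chain dehydrogenase, at 262 to 321 CPM in late and 63.6 to 110 CPM in early members (log2 1.69, SE 0.18). When only members with at most 25% mt- UMIs were compared, the mitochondrial list had a median of 0.39 with 1 gene higher and 0 lower, and fatty acid oxidation 12 higher and 0 lower. The fall of the mitochondrial list was thus not seen at that limit. That comparison rests on 3 libraries and, by its limit, on a narrower range of mitochondrial shares.

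Stress genes differed as well. Gdf15, a secreted factor induced by mitochondrial and integrated stress, stood at 508, 482, 279 and 292 CPM in the late and 30.6, 62.0, 14.4 and 65.8 CPM in the early members of wt replicates 1, 2 and 3 and null replicate 2 (log2 3.17, SE 0.27). With it, Ddit3 (log2 1.38, SE 0.22) and the mitochondrial chaperonins Hspd1 and Hspe1 (log2 0.75 and 0.88) were higher, 4 of 7 tested genes of that list, and none was lower. Of 16 immediate early and heat shock genes, known to be induced during tissue dissociation, 7 were higher and 1 lower, and in marker-rich members 14 were higher and 0 lower. With a mt- share of at most 25% none was higher and 2 were lower, with a median of -0.28 against 0.67 for all members, whereas 4 of 7 stress genes were higher. Of the genes of other cell types, none of 7 epididymal, 5 endothelial and 4 erythroid genes passed over all members (edgeR), 1 of 7 leukocyte, 2 of 4 gastric and 2 alveolar genes were lower and 2 of 4 fibroblast and 2 of 6 hepatocyte genes higher. In marker-rich members 3 of 5 endothelial genes were lower and 2 of 6 hepatocyte genes higher (median 0.84), and at equal depth (12.4% of 11783 genes higher and 8.73% lower) 3 of 5 hepatocyte genes were higher (median 1.09). These hepatocyte genes went the same way as the fatty acid oxidation genes above. Their part in the result was not tested.

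Genes with known sex differences in kidney separated the segments too, in libraries that were all male: 4 of 5 androgen-linked and 4 of 5 genes listed as higher in females were higher in late members. The latter 4 include Cyp2d9, which was lower in female libraries here (log2 -2.41) and whose place in that list may be wrong. Kap, the kidney androgen-regulated protein, was at 24288, 30433, 9.61 and 1926 CPM in late members of wt replicates 1, 2 and 3 and null replicate 2 and at 38.0, 301, 0 and 1.83 CPM in their early members. In wt replicate 3, with 23 late members, that level is near the floor. In wt replicate 2, 60.7% of Ptprc-positive barcodes and 61.4% of members had a Kap UMI, and in wt replicate 1 30.2% and 31.5%, so that the share of barcodes with a Kap UMI was at background in both. Cyp2d9, a cytochrome P450, was at 151 to 394 CPM in late and 1.66 to 3.83 CPM in early members (log2 6.18, SE 0.23), and Prlr, the prolactin receptor, was at 175 to 990 CPM against 17.6 to 54.6 CPM (log2 3.51, SE 0.20).

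Members above and at or below 25% mt- UMIs were then compared on nuclear genes alone, within 8 grouped libraries (all but wt replicate 5). Levels are CPM of nuclear UMIs outside the rule genes. Of 13234 genes 3213 (24.3%) were higher and 3970 (30%) lower above the limit (edgeR quasi-likelihood test, library as a block). In marker-rich members 1739 (16.2%) of 10731 were higher and 1777 (16.6%) lower. Of 2373 genes called in both fits, 2065 had the same sign, 265 were higher over all members but lower among marker-rich members, and 43 the reverse.

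Early-tubule transport was higher in members of high mt- share under both choices. Other tubule genes are not independent of the 7 markers that chose the members, whose level was steep along the mt- share over all members and nearly flat in marker-rich members. All 8 early convoluted genes were higher, with a median of 2.38 over all members and 1.45 in marker-rich members. The late straight genes with the smallest adjusted p over all members (edgeR) were split. Slc27a2 (log2 1.48, and 0.33 in marker-rich members) and Slc5a10 (0.95 and -0.25) were higher over all members. Atp11a (-0.50 and -0.31) and Cyp7b1 (-1.33 and -2.23) were lower. Slc4a4, the basolateral bicarbonate exit carrier, stood at 1643 to 4685 CPM above and 366 to 716 CPM below the limit, without overlap in 8 of 8 libraries (log2 2.33, SE 0.20, edgeR adjusted p = 1.29e-05, and 1.31, SE 0.10 in marker-rich members). Slc2a2, the basolateral glucose carrier GLUT2, was at 175 to 471 CPM against 40.03 to 94.1 CPM (log2 2.35 and 1.25). Of 23 solute carriers 22 were higher over all members and 19 in marker-rich members, and none was lower. Amn, which anchors the vitamin B12 receptor cubilin, was at 219 to 582 CPM against 49.1 to 85.8 CPM (log2 2.52 and 1.49), and Cubn itself was higher (log2 2.16 and 1.01). Of the vitamin D and phosphate genes, 7 of 8 over all members and 6 of 8 in marker-rich members were higher, among them Kl, the FGF23 co-receptor klotho (log2 2.20 and 1.13). Gpx3 was at 14749 to 64848 CPM above and 4257 to 6438 CPM below the limit (log2 2.40 and 1.46). The same direction held among early members alone, where 18.5% of 11049 genes were higher and 23.4% lower, and all 8 convoluted genes and 21 of 23 solute carriers were higher. Early calls at low mt- shares were at or near background in wt replicates 1 and 2. At equal depth, those of the lowest bin were near background in null replicates 2 and 3 as well. The fit on early members therefore does not isolate 1 segment.

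Immediate early genes went the other way. Of 16 immediate early and heat shock genes, 15 were lower above the limit and 1 higher over all members (median -1.33), and 15 were lower and 0 higher in marker-rich members. Fos stood at 130, 326, 560, 516, 271, 191, 680 and 324 CPM above the limit in wt replicates 1 to 4, het replicates 1 and 2 and null replicates 2 and 3, and at 776, 918, 1326, 1201, 1228, 585, 1321 and 865 CPM below it. It was lower above the limit in all 8 libraries (log2 -1.54, SE 0.14, and -0.90, SE 0.18 in marker-rich members). Fosb (log2 -1.59 and -1.30), Atf3 (log2 -1.82 and -1.21) and Zfp36 (log2 -1.23 and -0.73) did the same. The genes of mitochondrial and integrated stress were split, with 4 higher and 4 lower of 9 over all members and 1 higher and 5 lower of 8 in marker-rich members. Gdf15 was lower (log2 -1.14 and -1.71), and so was Atf4 (log2 -0.64 and -0.52), a transcription factor of the integrated stress response. Lonp1, a protease of the mitochondrial matrix, was higher in 8 of 8 libraries (log2 0.86, and 0.30 in marker-rich members). All 16 genes of the immediate early list were lower when the rule was applied at equal depth, with every barcode thinned to 500 nuclear UMIs (16.2% of 11528 genes higher and 19.9% lower). That setting read the exclusion genes after thinning and summed the full counts, so barcodes with a UMI of Ptprc could enter it. There 5 of 5 fibroblast, 6 of 7 leukocyte and 3 of 5 endothelial genes were lower too, and in marker-rich members 4 of 4 erythroid genes were lower. The part of these cells' RNA in the immediate early genes was not tested.

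**Figure D5:**
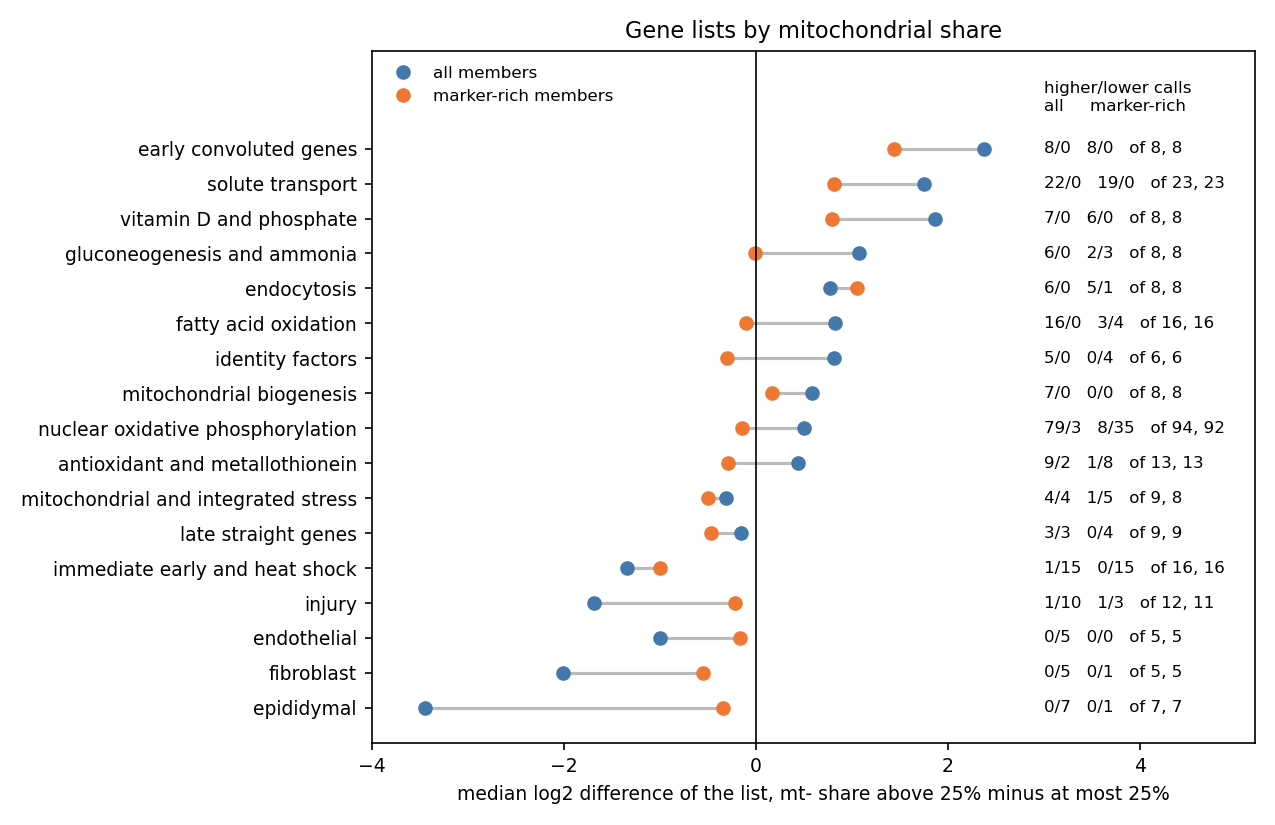
Median log2 difference of each gene list between members above and at or below 25% mt- UMIs (horizontal axis), for all members (blue) and marker-rich members (orange), with the number of genes called higher and lower and the number tested in each. Early convoluted and solute transport genes stay to the right and immediate early genes to the left in both, whereas oxidative phosphorylation, fatty acid oxidation and identity factors cross 0.

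Genes of energy metabolism and of cell identity did not hold. Over all members, 79 of 94 nuclear oxidative phosphorylation genes were higher and 3 lower above the limit (median 0.51), all 16 fatty acid oxidation genes were higher (median 0.82), and 5 of 6 identity factors were higher. In marker-rich members the first list had 8 higher and 35 lower of 92 (median -0.14), the second 3 higher and 4 lower (median -0.10), and of the identity factors 4 were lower and none higher. At equal depth the oxidative phosphorylation list had 17 higher and 18 lower, and among early members alone 57 higher and 1 lower of 93. Hnf4a, which holds proximal tubule identity, was at 162 to 300 CPM above and 58.6 to 221 CPM below the limit over all members (log2 0.98, SE 0.12). In marker-rich members it had a log2 difference of -0.22 (SE 0.07, edgeR adjusted p = 0.0174). Acadm, the medium-chain fatty acid dehydrogenase, had 0.83 (SE 0.10) and -0.15 (SE 0.07, edgeR adjusted p = 0.144). Gpx1 was higher over all members (log2 0.68) and lower in marker-rich members (log2 -0.33), and Hspd1 likewise (log2 0.51 and -0.35). Genes listed for other cell types moved with the first fit. All 7 epididymal, 5 endothelial and 5 fibroblast genes were lower above the limit, with medians of -3.44, -0.99 and -2.01. Of the hepatocyte genes, 6 of 8 were higher and 0 lower (median 0.78), in the direction of the energy metabolism genes. Of the 7 leukocyte genes 4 were lower. In marker-rich members 1 of 8 hepatocyte genes was higher (median 0.40) and 4 of 4 erythroid genes lower (median -0.61). Of the lists that fell, 1 epididymal and 1 fibroblast gene and no endothelial gene were lower in marker-rich members. Over libraries, the median summed level of the hepatocyte genes was 569 CPM in all members and 636 CPM in marker-rich members. That of the endothelial genes was 708 and 291 CPM, of the fibroblast genes 267 and 59.9 CPM and of the epididymal genes 2656 and 211 CPM. Whether the hepatocyte genes came from liver RNA was not tested. The part of the RNA of these lists in the first fit was not tested beyond these values.

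Injury genes were lower above the limit in 10 of 12 cases over all members (median -1.68), but in marker-rich members 3 of 11 were lower and 1 higher (median -0.22). Krt18, a keratin raised in injured tubules, had a log2 difference of -2.63 (SE 0.21) and of -0.62 (SE 0.36, edgeR adjusted p = 0.213). Vim, vimentin, was lower in both (log2 -1.73 and -0.48). Keratins and vimentin are also made by other cells of these pools. Havcr1, the injury marker KIM-1, had 48 UMIs in all members, at most 8.66 CPM in a library, and is too rare here to compare.

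Differences between Nalcn genotypes could be addressed only in part, since Nalcn had 10 UMIs in all 24974 members, 0 in 6 libraries and at most 5 (null replicate 3) in any other. The deletion could therefore not be checked in these cells. Prom1, whose locus drives the recombinase, had 1560 UMIs, and its level varied from 0.415 CPM (2 UMIs, het replicate 1) to 64.9 CPM (het replicate 2), with 0.685 to 64.5 CPM in wt libraries. Prom1 was lower in late than in early members (log2 -1.65, SE 0.29) and higher above than below 25% mt- UMIs (log2 0.83, SE 0.19). The median mt- share was 32.9% ± 3.42 (SD, n = 4) in het and null libraries together and 35.5% ± 8.17 (n = 5) in wt libraries, a difference of -2.59 points within the spread between libraries (exact two-sided permutation test, p = 0.587, adjusted over 3 tests 0.587, and -2.17 points, adjusted 0.679, without null replicate 3). Marker-rich members gave -5.18 points (36.6% ± 2.93 and 41.7% ± 3.42, exact p = 0.0317, adjusted 0.0952), and -5.22 without null replicate 3 (exact p = 0.0893, adjusted 0.268). Members were 20.5% ± 7.46 of passing barcodes in het and null and 14.2% ± 8.70 in wt libraries (exact p = 0.278, adjusted 0.417), and late members 3.11% ± 3.13 and 6.14% ± 4.39 of segmented members (exact p = 0.270, adjusted 0.417). Without null replicate 3 the difference in member share went from 6.36 to 3.11 points (exact p = 0.607, adjusted 0.679) and that in late share from -3.03 to -2.27 points (exact p = 0.464, adjusted 0.679). In pooled organs, fewer tubule cells and more cells of other organs cannot be told apart.

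No gene of the members passed the threshold between null and wt or between het and wt libraries, of 13639 tested (0 called, 0%, in both, edgeR quasi-likelihood test with sex as a covariate). At an unadjusted p under 0.05 there were 730 genes for null and 1842 for het, and DESeq2 called 38 and 294. Without null replicate 3 the edgeR counts were again 0 for both, with 667 and 1660 genes at an unadjusted p under 0.05. In marker-rich members 7 of 11947 genes (0.0586%) were higher in null libraries: Adam7, Cryba4, Cst11, Cst12, Defb20, Spag11b and Bpifa1. Without null replicate 2 or null replicate 3 none of them passed (edgeR, 0 genes called and 568 and 1108 at an unadjusted p under 0.05). Their fitted log2 differences were 3.87 to 5.53 with both null libraries, 3.35 to 5.54 without null replicate 3 and 4.77 to 13.96 without null replicate 2, and their size depends on the prior count where libraries were at 0. Adam7, Cst11, Cst12, Defb20 and Spag11b are known from the epididymis. In marker-rich members the 7 listed epididymal genes summed to 2410 and 2121 CPM in null replicates 2 and 3, 275 and 203 CPM in het and 127 to 560 CPM in male wt libraries, so that het lay within the range of wt. Cst11, for example, was at 88.1 and 111 CPM of all UMIs in marker-rich members of the null libraries, at 4.45 and 3.03 in het and at 0 to 3.43 in wt libraries. Bpifa1 was high in null replicate 2 alone (84.3 CPM against 1.13 CPM in null replicate 3). Over all members, where no gene was called, the epididymal sums were 18307 and 18698 CPM in null, 12226 and 15783 CPM in het and 1569 to 6806 CPM in male wt libraries. For proximal tubule transcripts the null contrast had list medians of -0.79 for early convoluted genes, -0.35 for solute transport and -0.57 for mitochondrially encoded genes (all genes 0.01), with 0 genes called in each. Without null replicate 3 these medians were -1.29, -0.66 and -0.61, and without null replicate 2 they were -0.26, -0.14 and -0.52.

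Between sexes 4 genes passed (0.0293% of 13639), and 8 without null replicate 3. Xist and its antisense partner Tsix, which share a locus, were higher in female libraries (log2 13.75 and 6.47), and Y-linked Kdm5d (log2 -3.65, SE 0.41) and Cyp2d9 (log2 -2.41, SE 0.28) lower. Cyp2d9 stood at 11.5 to 22.03 CPM of all UMIs in the 6 grouped male libraries and at 3.11, 3.66 and 4.77 in those labelled female, with no overlap (edgeR adjusted p = 0.0398). It had been placed in the list of genes higher in females, and its direction in these members was the opposite, so that list entry may be wrong. The 2 genes that were lower lost the threshold when any 1 of het replicates 1 and 2 or wt replicates 1 to 5 was left out. Cyp2d9 also lost it without null replicate 2 or null replicate 3, the library with mixed signs of sex (edgeR adjusted p = 0.229 and 0.237). In marker-rich members 9 genes passed, with Slc7a13, Ddx3y, Uty, Eif2s3y and Mettl7a2 added to the 4, all lower, and 5 passed without null replicate 2 or null replicate 3. Slc7a13 had a log2 difference of -5.28 (SE 0.73, edgeR adjusted p = 0.135) over all members. Cyp2d9 was far higher in late members, and Slc7a13 is a gene of the late rule. Late members were 0.824% to 2.70% of segmented members in the grouped libraries labelled female and 1.86% to 11.4% in the grouped male libraries. The part of the segment mix in these sex differences was not tested.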

How the data were processed

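Droplet-based single-cell RNA sequencing (10x Chromium 3' v3) was read from deposited matrices of UMI counts for 31053 genes, which the authors made with Cell Ranger (version 2.1.1 in the submitters' processing notes, 3.0.2 in the matrix headers) on mm10 before normalization. Hashtag counts were not used, so the organ of a barcode is not known here. Library totals ran from 8571019 to 139793927 UMIs. Groups followed the labels, for null replicate 3 the strain label alone, and 2 tissue libraries with conflicting genotype labels entered no comparison. No doublet caller was run. A stricter exclusion (members with 0 UMIs of Alb, Sftpc, Cdh5, Kdr, Col1a2, Col3a1, Slc12a1, Atp6v1g3 and Spink8, 46.4% of them) stands in for it.

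Member counts were summed per library, and per segment or mt- class with at least 20 members. They were tested with edgeR 4.0.16 in R 4.3.3 (quasi-likelihood test, TMM scaling, filterByExpr, Benjamini-Hochberg over all genes, threshold 0.05), with sex as a covariate between genotypes and the library as a block within libraries. Mitochondrial genes, rule markers and exclusion genes stayed out of the comparison by mt- share. Shares were compared by exact permutation or sign-flip tests written in Python 3.11.15 with numpy 2.4.6. Wilson intervals came from scipy 1.17.1. DESeq2 1.42.0, RLE scaling, no filter, the stricter exclusion, 500 nuclear UMIs per barcode, other mt- limits and leaving out each library were tried. In the gene comparisons at 500 nuclear UMIs, the rule and segments were read from thinned counts. The full counts of the barcodes so chosen were then summed, so that setting is not a check of depth alone. The script was tested on simulated counts with 200 changed genes.

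Named are the genes of the fixed lists past the threshold, at most 4 per list, the 8 largest rises and 8 largest falls with at least 50 CPM in a group, and Nalcn and Prom1; some genes that met this rule are not reported here. Genes named outside this rule (Ddx3y, Cdh5, Havcr1, the sex and epididymal genes and single genes without a call) were chosen after their values were seen. Members, lists and the marker-rich class were chosen with earlier results of these data known.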

Additional observations from a re-analysis of the deposited data

Results flagged for a closer look

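Among the 5 wt libraries, 33 summary measures of the members were screened for a library far from the others (Dixon's criterion), and 4 stood out, where chance gives about 1 in 20. Slc34a1 was at 8048.6 CPM of nuclear UMIs in wt replicate 1 and at 2857.9 to 4154.4 CPM in the others. The summed level of alveolar type 2 genes was 1684.3 CPM in wt replicate 2 against 32.268 to 394.23 CPM. In wt replicate 5, which had 92 members, gastric genes summed to 25891 CPM against 770.63 to 2953.2 CPM, and podocyte genes to 298.48 CPM against 143.61 to 167.65 CPM. The part of such RNA from other organs in the members' values was not tested. Outside the members, 5602 barcodes of the tissue libraries met the marker rule with more than 60% mt- UMIs and so lay outside the members, whereas 0 barcodes of the ZsGreen-positive blood and peripheral blood libraries did. The marker rule demands 0 UMIs of Ptprc, so this 0 is no test of the blood libraries.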

How the results depend on the processing

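Counts of called genes between null and wt libraries were 0 in the fit reported and 38 by DESeq2, 1 with RLE scaling, 7 in marker-rich members, 11 without the low-count filter, 3 without the sex covariate and 6 at equal depth. Leaving out 1 library gave 0 to 6 (6 without wt replicate 1, 4 without wt replicate 3). Between het and wt they were 294 by DESeq2, 9 without the filter and 7 without the sex covariate, and leaving out 1 library gave 0 to 267, where 267 was reached without wt replicate 1. Between sexes, 4 genes became 29 by DESeq2, 9 in marker-rich members, 1 at a mt- share of at most 25%, 11 without the filter, 8 at equal depth, 2 with the stricter exclusion, 7 in wt libraries only and 2 to 8 when 1 library was left out (8 without either null library). With the replicate number as a block, 0 genes were called in each of the 3 comparisons. The labels do not say that a number marks a shared mouse or day, so the numbers were not taken as a pairing. Correlations of same-numbered libraries, after centring on group means, ran from -0.256 to 0.0257. In the groups of 2 libraries (het and null) the centred values mirror each other, so these correlations cannot decide on a pairing. Marker-rich members without 1 null library and the early shares of members thinned to equal depth were alternatives chosen after seeing the data. The cause of these shifts was not tested.

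Between late and early members, 1863 genes became 816 with no library block, 1089 with the stricter exclusion and 732 to 1854 when 1 library was left out. Between mt- shares, 7183 genes became 4626 in early members only, 3516 in marker-rich members, 4554 with no library block, 4163 at equal depth, 3738 with the stricter exclusion and 5777 to 7359 when 1 library was left out. The difference in mt- share from loop of Henle cells was -4.27 to -1.90 points without 1 library and turned to 2.67 in marker-rich members. From hepatocytes it was 4.81 to 15.3 without 1 library and -42.9 with no upper limit. Requiring 500 genes left 1 library with hepatocytes and could not be tested. Between deleted and wt libraries it was -5.25 to 0.0184 (the latter without wt replicate 5), the member share 3.11 to 8.99 and the late share -4.57 to -1.71.

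Of the named genes, 10 results between late and early members and 27 between mt- shares turned their sign. Between late and early members at a mt- share of at most 25%, log2 differences were 0.996 for Amn, 0.321 for Pck1, 0.0513 for Esrra, 0.383 for mt-Co3, 0.0821 for mt-Nd3, 0.339 for mt-Nd4, 0.466 for mt-Co2, 0.252 for Pth1r, -0.320 for Ier2 and -0.175 for Hspa1a. Between mt- shares in marker-rich members they were -0.253 for Slc5a10, -0.0253 for Dab2, -0.0607 for Pck1, -0.0907 for Hadh, -0.147 for Acadm, -0.286 for Nr1h4, -0.221 for Hnf4a, -0.350 for Hspd1, -0.00149 for Cat, -0.333 for Gpx1, -0.289 for Prdx5, -0.0120 for Neat1, -0.0403 for Vdr, 0.172 for Sox4, 0.0692 for Defb48, 0.411 for Cst8, 0.150 for Ly6g5c and 0.259 for Cst12. At equal depth they were -0.0639 for Slc5a10, -0.0160 for Acadm, -0.164 for Nr1h4, -0.0951 for Hnf4a, -0.213 for Hspd1, -0.213 for Gpx1 and -0.144 for Prdx5. Slc7a12 turned to 0.0313 at a limit of 20% and to 0.122 in early members only.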
